A study of Mus musculus with 2 samples.

Results

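Long footprints are the stretches of at least 25 bases, within open chromatin of mouse fetal liver, along which DNase I cut less than in the bases around them. They were chosen by their length, overlap and peak, as footprints of replicate 1 whose end minus start was 25 bases or more, which overlapped a replicate 2 footprint by 1 base or more and lay wholly inside a peak of the longer replicate 1 peak list. This gave 10922 long footprints, out of 123897 footprints listed in replicate 1 and 94430 in replicate 2. The liver came from mouse embryos of 13.5 days, of strain C57BL/6N,129, and per the labels these carried the LCR deletion and the HET globin mutation. The sources used here do not give what the deletion removes or which allele is HET. The 2 libraries are replicates 1 and 2 of 1 group, from separate biosamples under the same donor identifier. The sex was not collected, and there was no control group, so no comparison between conditions was possible. Length, overlap and peak chose the members and are given as a description. Long footprints are set beside the 30701 shorter footprints (under 25 bases in replicate 1) that met the other criteria, and regions are not replicates of a condition: the intervals given are 95% exact Clopper-Pearson intervals and cover counting error only.

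DNase I cuts DNA that is free of nucleosomes, and a protein that sits on such DNA shields the bases it covers, which leaves a gap in the cuts called a footprint. CTCF, a zinc finger protein that marks insulators and the ends of chromatin loops, reads an unusually wide site: its inner fingers bind a core, and its outer fingers can bind a shorter motif upstream of it. Transcription factor IIIC covers the internal promoter of tRNA genes, whose boxes A and B lie inside the gene, and transcription factor IIIB sits just before the gene's start. Many promoters carry rows of GC boxes, bound by SP and KLF proteins. The fetal liver at this age makes red cells, and its KLF, GATA and NF-E2 factors act at the globin loci.

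The sequences below are those the results turn on, read from the GRCm38 (mm10) genome 5′ to 3′ on the strand given. The first 3 are exact matches of the CTCF core, with the core and the upstream motif in capitals, and the next 3 are exact cores without that motif; within each set they are the ones in the highest replicate 1 peaks away from gene starts, chosen after their values were seen. In the first set the 5′ edge of the footprint lies before the upstream motif, and in the second it lies just before the core.
chr1:86501761-86501804 (+), nearest start Ptma: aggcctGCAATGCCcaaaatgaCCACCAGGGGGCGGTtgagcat
chr2:152112085-152112128 (+), nearest start Srxn1: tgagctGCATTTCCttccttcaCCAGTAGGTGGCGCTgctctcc
chr5:120620822-120620863 (+), intron of Ddx54: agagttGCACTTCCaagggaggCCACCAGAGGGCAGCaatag
chr14:51064951-51064977 (-), nearest start Olfr750: tccttCCAGCAGATGGCGCTcccgaac
chr7:143008206-143008235 (+), intron of Tspan32: acatcggCCACCAGGGGGCACCaaggtcag
chr8:70844703-70844734 (+), intron of Kcnn1: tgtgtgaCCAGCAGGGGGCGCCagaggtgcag

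The next 3 lie in the later part of tRNA genes, with the box B letters GGTTCGA in capitals, and are shown in the direction of the tRNA gene.
chr7:120917563-120917603 (+), tRNA gene n-TLaag4: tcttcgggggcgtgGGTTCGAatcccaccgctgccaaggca
chr10:63429476-63429517 (-), tRNA gene n-TStga3: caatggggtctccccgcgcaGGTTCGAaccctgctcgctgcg
chr7:79466454-79466494 (+), tRNA gene n-TRtcg5: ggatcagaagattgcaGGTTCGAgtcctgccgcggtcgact

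The next 4 are from the globin loci. Capitals mark the letters TGAGTCA inside the paired NF-E2 sites of the beta-globin enhancer HS2, TATAAA in Hbb-bt, and a CTCF core before Hbq1b. In an intron of Nprl3 they mark a GATA site and, before it, the letters CTG, which are part of an E-box and not a full one.
chr7:103861076-103861109 (-), HS2: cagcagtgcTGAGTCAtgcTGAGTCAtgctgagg
chr7:103813936-103813960 (-), Hbb-bt: cattgggtaTATAAAgctgagcagg
chr11:32245860-32245888 (-), intron of Nprl3: ggtaggccgagaCTGcaggggtgAGATAA
chr11:32286922-32286963 (-), before Hbq1b: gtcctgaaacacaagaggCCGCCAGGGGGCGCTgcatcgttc

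The last 3 are promoter members. Capitals mark the NRF1 letters GCGCANGCG before Fzr1, and CCAAT boxes and GC boxes (GGGCGG), on either strand, before Dnm2 and Rc3h1, where 2 of the 10 longest members lie.
chr10:81378765-81378789 (-), Fzr1: ccgcgctggggcGCGCAGGCGcagc
chr9:21424833-21424898 (+), Dnm2: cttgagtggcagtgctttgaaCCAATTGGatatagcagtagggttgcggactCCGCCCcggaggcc
chr1:160906302-160906366 (+), Rc3h1: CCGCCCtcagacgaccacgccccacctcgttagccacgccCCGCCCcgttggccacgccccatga

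Of the 13518 replicate 1 footprints of 25 bases or more, 12191 lay in a peak of the longer list, and 10922 of these (89.6%, 89.0 to 90.1%) also overlapped a replicate 2 footprint. Of the 90889 shorter footprints in peaks, 30701 did so (33.8%, 33.5 to 34.1%); a longer interval has more bases with which to meet another. Replicate 2 held fewer long footprints of its own: 4466, of which 4136 lay in its 36523 peaks, and 4107 of these overlapped a replicate 1 footprint. The members lay in 8710 of the 47198 replicate 1 peaks (18.5%). Most of these peaks held a single member, 6836 in all, while 1574 held 2, 267 held 3, 28 held 4 and 5 held 5. The 5 fullest peaks lay at the starts of Setd3 and Ccnk, of Gpbp1, of Garem1, of BC005624 and Usp20, and of Sh3glb1.

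The members measured 25 to 77 bases in replicate 1, with a median of 31 bases and quartiles of 27 and 37 bases. At the edge of the length criterion, 1096 members had 25 bases, and 1080 shared footprints had 24 bases and were left out. The replicate 2 counterparts of these were alike in length, with a median of 16 bases for the members of 25 bases and of 15 bases for the footprints of 24 bases. Length in replicate 2 was not used in the choice. There the counterpart (the footprint with the largest overlap) had a median of 20 bases for long footprints, with quartiles of 13 and 27 bases, and of 10 bases for shorter ones, with quartiles of 8 and 14 bases. A counterpart of 25 bases or more was found for 3446 long footprints (31.6%, 30.7 to 32.4%) and for 1071 shorter ones (3.49%, 3.29 to 3.70%). In replicate 2, then, most members were under 25 bases.

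**Figure D1:**
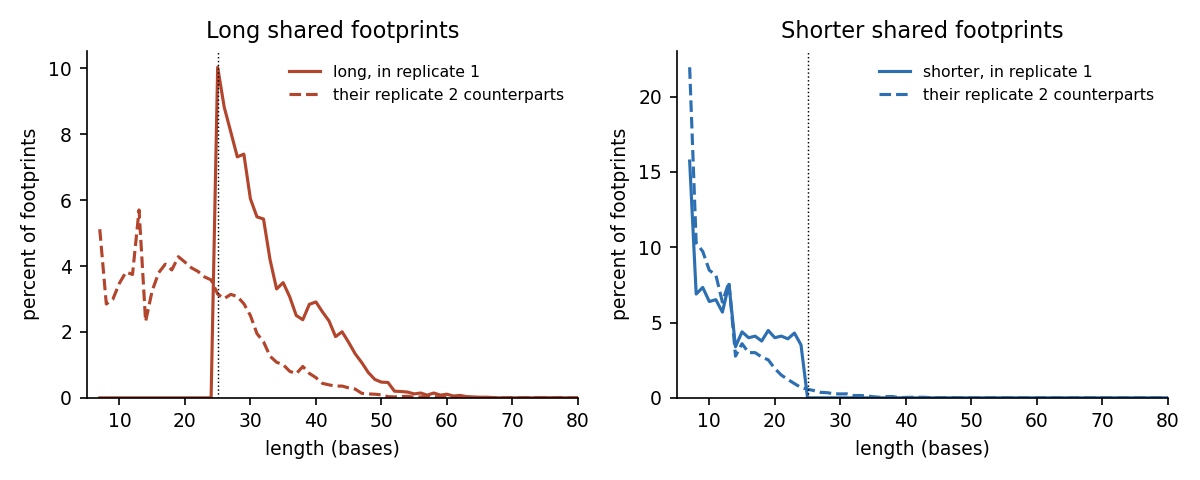
Length in bases (horizontal axis) against the percent of footprints (vertical axis) for long footprints on the left and shorter shared footprints on the right, in replicate 1 (solid) and for their replicate 2 counterparts (dashed); the dotted line marks 25 bases. The replicate 2 lengths of long footprints spread from 7 to 85 bases around a median of 20 bases, and those of shorter footprints gather at the low end around a median of 10 bases.

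Replicate 2 often held a piece of the replicate 1 footprint. The counterpart lay wholly inside the long footprint in 8487 cases (77.7%), and was longer than it in 596 (5.46%). A long footprint met 2 or more replicate 2 footprints in 3293 cases (30.2%, 29.3 to 31.0%), and 270 met 3 or more. Among shorter footprints 1943 met 2 or more (6.33%, 6.06 to 6.61%). Both edges lay within 2 bases of the counterpart's in 1306 long footprints (12.0%, 11.4 to 12.6%) and in 6906 shorter ones (22.5%, 22.0 to 23%). That order depended on which library set the length: with the replicates swapped it was 28.7% for long and 17.3% for shorter footprints.

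Long footprints lay in strong peaks and near their middle. The authors' value of the host peak, a signal whose scale is not stated, had a median of 7.01 in replicate 1 for long footprints and of 4.94 for shorter ones, and at the same places the replicate 2 peak had a median of 4.05 for long and 3.33 for shorter. When the replicate 1 peaks were ranked by that value and split into 4 equal parts, a member was found in 6233 of the 11800 highest (52.8%), in 2202 of the next 11799, in 274 of the next 11800 and in 1 of the 11799 lowest. Whether peak height bears on the length was not tested. The middle of a long footprint lay at a median of 22 bases from the middle of its peak, and that of a shorter one at 48 bases, in peaks of similar median length (220 and 240 bases).

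Of the long footprints, 6989 (64.0%, 63.1 to 64.9%) lay within 1000 bases of the start of a protein-coding transcript, against 22039 of the shorter ones (71.8%, 71.3 to 72.3%). Those near a start sat mostly before it: 5324 (76.2%) were upstream, with a median position of -46 bases, against 13930 shorter footprints (63.2%) with a median of -25 bases. The midpoint fell in a coding exon in 288 long footprints (2.64%) and 1527 shorter ones (4.97%), and in a UTR in 1863 long (17.1%) and 7734 shorter (25.2%). Introns held 2716 long footprints, and 6055 lay outside protein-coding genes. The members near starts and away from them differed in peak height and base composition, with a median replicate 1 peak value of 10.3 and 73.1% GC near starts, and 2.58 and 63.6% GC elsewhere.

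**Figure D2:**
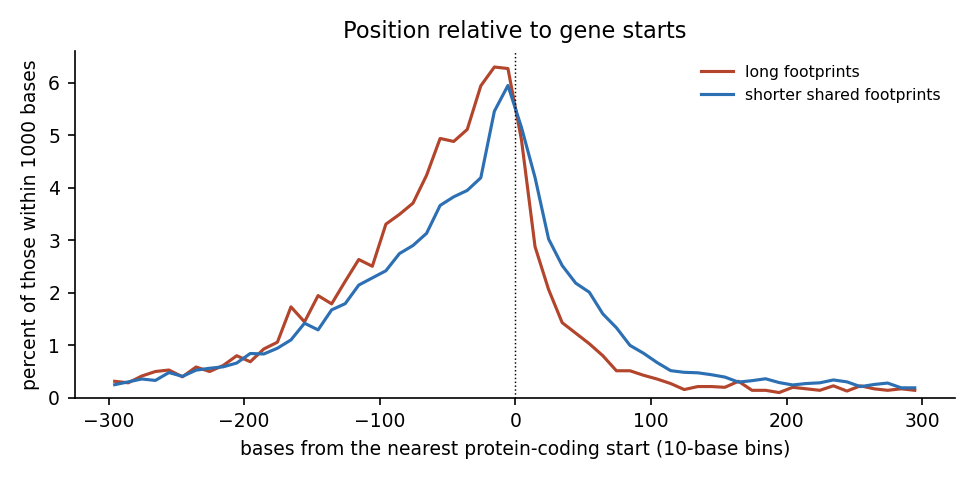
Position of footprints relative to the nearest protein-coding start in bases (horizontal axis, negative is upstream) against the percent of the footprints within 1000 bases that fall in each 10-base bin (vertical axis), for long and shorter shared footprints. Long footprints lie further upstream, with a median of -46 bases against -25 bases, and fewer of them lie past the start.

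The CTCF core, which was searched with mismatches allowed, was found in more long footprints than any of the patterns searched by their exact letters. A match of its 15-letter core with at most 2 mismatches, in the footprint widened by 5 bases on each side, was found in 3228 long footprints (29.6%, 28.7 to 30.4%) and in 1373 shorter ones (4.47%, 4.24 to 4.71%). A longer window can hold more matches, so windows of the same length as each member, moved by 100 bases within its peak, were searched as well: 149 of 7882 held the core (1.89%, 1.60 to 2.22%). Such windows could be placed for 6953 members, those in longer peaks, of which 81.2% lay within 1000 bases of a start; of these members 978 held the core (14.1%, 13.3 to 14.9%). With at most 1 mismatch the share of all members was 19.8%, which is below that of the KLF pattern given further on. In the central 60 bases, a window of 1 size for every footprint, the core was found at 30.3% of long and 9.10% of shorter footprints. By length the share was 4.84% at 13 to 18 bases, 11.2% at 19 to 24 bases, 29.5% at 25 to 29 bases and 33.8% at 30 to 34 bases. It was 23.4% at 35 to 39 bases, 35% at 45 to 49 bases, and 11.9% (8.25 to 16.3%) among the 270 footprints of 50 bases or more.

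**Figure D3:**
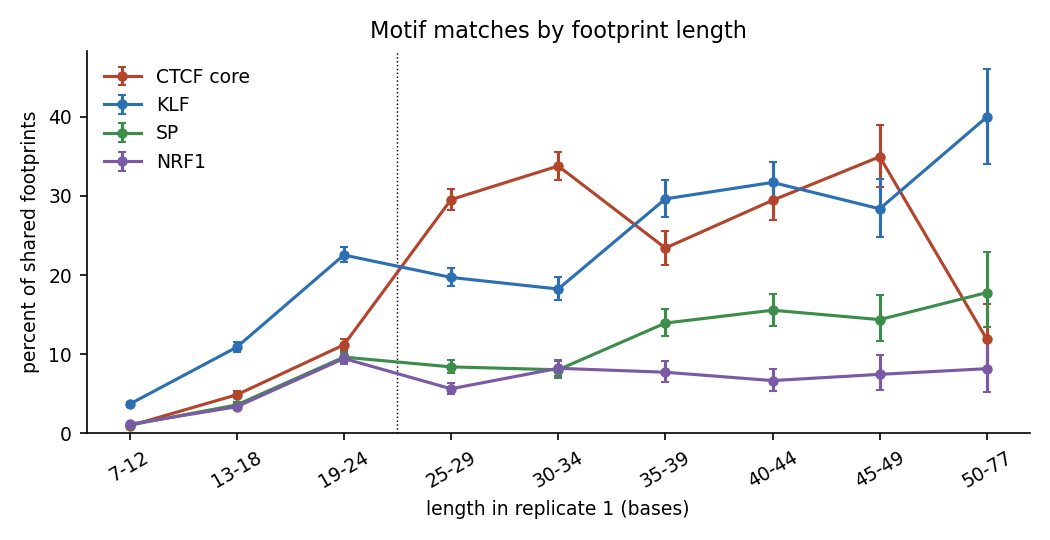
Percent of shared footprints with a match of the CTCF core, KLF, SP and NRF1 patterns (vertical axis) by footprint length in replicate 1 (horizontal axis, bases); bars are 95% exact intervals and the dotted line separates shorter from long footprints. The CTCF share is 11.2% at 19 to 24 bases and 29.5% at 25 to 29 bases, while the KLF, SP and NRF1 shares at 19 to 24 bases are no lower than those at 25 to 29 bases.

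CTCF members lay mostly away from gene starts. Of the 3933 long footprints over 1000 bases from a start, 2554 held the core (64.9%, 63.4 to 66.4%), against 674 of the 6989 near a start (9.64%, 8.96 to 10.4%). Their host peaks were lower than those of the members without a core, with a median value of 2.45 in replicate 1 and 1.72 in replicate 2, against 9.66 and 5.19. Their median length was 31 bases in both sets, and their replicate 2 counterparts had 22 bases with a core and 19 bases without. The core lay on the plus strand in 1590 members and on the minus strand in 1638. It matched all 15 letters in 747 members, with 1 mismatch in 1414 and with 2 in 1067.

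Around the core the replicate 1 footprints took 2 forms that differ in where the 5′ edge falls. In 1712 members (53%, 51.3 to 54.8%) the footprint began 4 to 7 bases before the core, and in 590 (18.3%, 17 to 19.7%) it began 20 to 24 bases before it. The 12 positions from 8 to 19 bases between them held 681 members. In replicate 1 the 3′ edge had a single form: it lay 4 to 12 bases after the core in 2618 members (81.1%), with a median of 8 bases. The length criterion bears on this edge, since a footprint that begins 4 to 7 bases before the core must end past it to be a member. The replicate 2 counterparts' 3′ edge was more spread, with a median of 4 bases and quartiles of -1 and 8 bases (negative is inside the core or before it). It had 150 counterparts at -3 bases, 240 at 4 and 241 at 8. In replicate 1 the first form had a median length of 29 bases and the second of 43 bases. That difference follows largely from the 5′ edge that defines the forms. Their replicate 2 counterparts, whose length was not used in the choice, had medians of 22 bases and 25 bases. The Olfr750, Tspan32 and Kcnn1 footprints printed above show the short form, and the Ptma, Srxn1 and Ddx54 footprints the long one.

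The long form went with the upstream motif. Its letters, GCANTNCC (6 fixed letters, at most 1 mismatch, 15 to 17 bases before the start of the core), were chosen with these data in view. In exact form the motif lay 16 bases before the core at 260 of its 438 occurrences within 60 bases of a core, and at no other offset more than 17 times. It was found at 373 of the 590 members that began 20 to 24 bases before the core (63.2%, 59.2 to 67.1%), at 211 of the 1712 that began 4 to 7 bases before it (12.3%, 10.8 to 14%), and at 803 of all 3228. The same letters read on the opposite strand, where the upstream motif itself was not matched, were found at 63 members (1.95%), and the upstream motif without the opposite-strand match at 637 (19.7%).

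**Figure D4:**
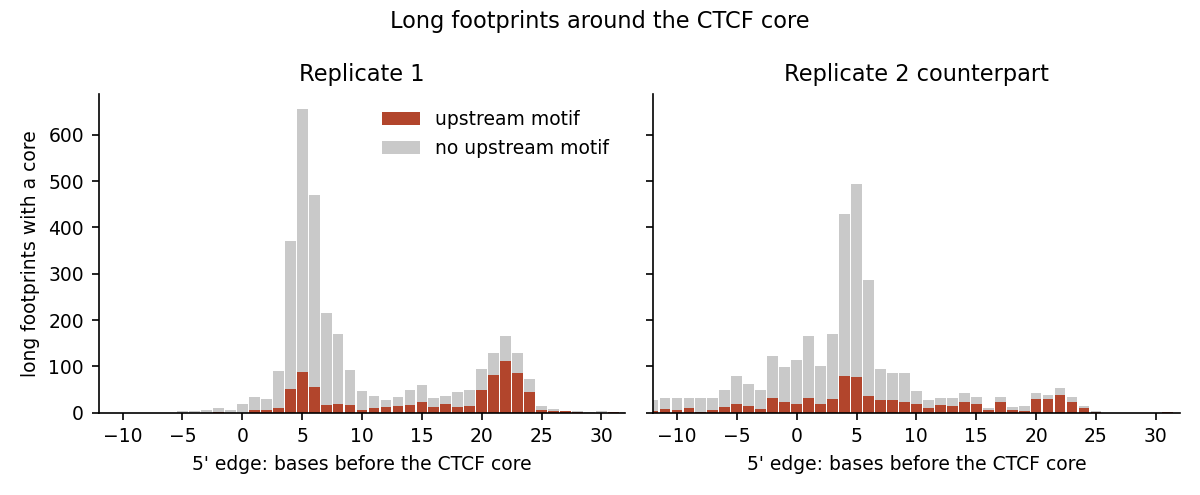
Number of long footprints with a CTCF core (vertical axis) by the position of their 5′ edge in bases before the core (horizontal axis; negative is inside the core or beyond) in replicate 1 and for the replicate 2 counterpart; members with the upstream motif are in red and stacked under those without. Replicate 1 has a high peak at 5 bases (656 members, 88 with the motif) and a second at 22 bases (165, 111 with the motif); replicate 2 has 494 and 53 members at these positions.

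The motif was then used first and the length read second, in each library on its own, over all footprints in peaks with a core and with no criterion of length or overlap. In replicate 1 these include the 3228 members with a core, and the motif letters were chosen with these data in view. The values are therefore not separate from those above. In replicate 1, footprints with a core and the upstream motif had a median of 28 bases (quartiles 21 and 39, n = 1505), against 25 bases (18 and 30, n = 5264) with a core alone. A length of 38 bases or more was reached by 29.1% (26.8 to 31.5%) of those with the motif and by 6.97% (6.30 to 7.69%) of those without. In replicate 2 these shares were 11% (8.92 to 13.3%) of 840 with the motif and 1.90% (1.44 to 2.47%) of 2892 without, and the medians were 23 and 21 bases. The median peak value was 1.61 with the motif and 1.71 without in replicate 1, and 1.48 with and 1.68 without in replicate 2; whether peak height bears on these lengths was not tested. The length of 38 bases was chosen after the values were seen.

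In replicate 2 the counterpart began 4 to 7 bases before the core in 1303 of the 3228 members (40.4%, 38.7 to 42.1%), 20 to 24 bases before it in 184 (5.70%, 4.93 to 6.56%) and 8 to 19 bases before it in 460 (14.3%, 13.1 to 15.5%). Per position, the 5 positions of the long form thus held about as many counterparts as the 12 between the forms. Those 12 include the flank of the short form, with 86 counterparts at 8 bases. Further out the counts were uneven, with 42 at 14 bases, 35 at 17 and 14 at 19. They rose to 53 at 22 bases and were 4 at 25 bases, so a smaller rise was seen at the long form. Of the 590 members with an edge 20 to 24 bases before the core in replicate 1, the replicate 2 edge was there too in 140 (23.7%, 20.3 to 27.4%) and at 4 to 7 bases in 160 (27.1%, 23.6 to 30.9%). Of the 1712 with the edge at 4 to 7 bases, the replicate 2 edge was at 4 to 7 bases in 875 (51.1%) and at 20 to 24 bases in 9 (0.526%). The long form was also more often split: 45.6% of its members met 2 or more replicate 2 footprints, against 17.6% of the short form. With median lengths of 43 and 29 bases, the long form has more bases with which to meet others. Whether length alone gives this difference was not tested.

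The CTCF members in the highest replicate 1 peaks were chr8:20424864-20424888, with a peak value of 35.6 in replicate 1 and 25.7 in replicate 2, and members before Wdr18 and Mrpl17. The first is 25 bases long, at -61666 bases from the nearest start, and its central 25 letters occur 6 times in the genome. The Wdr18 member, 56 bases, and the Mrpl17 member, 48 bases, lay at -89 and -172 bases from the start, with values of 27.3 and 26.5 in replicate 1 and 9.45 and 9.55 in replicate 2. The pattern CAGATGG, listed for NEUROD factors of nerve cells, was matched by 139 members. In 87 of them the match overlapped the CTCF core, so most of these matches cannot be told apart from CTCF letters.

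Near gene starts the commonest patterns were those of KLF and SP proteins, which read GC-rich boxes. The KLF pattern (CCACACCC, CCACGCCC, CCCCACCC or CCCCGCCC) was found in 2527 long footprints (23.1%, 22.3 to 23.9%), in 3132 shorter ones (10.2%, 9.87 to 10.5%) and in 12.6% (11.9 to 13.3%) of the moved windows; among the 6953 members with windows the share was 27.8% (26.8 to 28.9%). The SP pattern GGGGCGGGG was found in 1144 long footprints (10.5%, 9.91 to 11.1%), in 3.79% of shorter ones and in 4.5% (4.06 to 4.98%) of the windows, against 13% (12.2 to 13.8%) of the members with windows, and every one of the 1144 also matched KLF, since the SP letters contain a KLF match. NRF1, a factor of mitochondrial and housekeeping genes, had GCGCANGCG in 745 long footprints (6.82%, 6.36 to 7.31%), in 3.74% of shorter ones and in 3.64% (3.24 to 4.08%) of the windows, against 8.14% (7.51 to 8.81%) of the members with windows. In the central 60 bases these shares were 24.1% for long and 15.1% for shorter footprints with KLF, 10.7% and 5.50% with SP, and 7.08% and 5.16% with NRF1. The shares were no lower just under 25 bases: shared footprints of 19 to 24 bases held KLF in 22.5%, SP in 9.61% and NRF1 in 9.44%, against 19.7%, 8.38% and 5.61% at 25 to 29 bases. Among longer members KLF was found in 18.2% at 30 to 34 bases, 29.6% at 35 to 39 bases and 40% at 50 bases or more. The SP shares there were 8.01%, 13.9% and 17.8%, and those of NRF1 8.20%, 7.70% and 8.15%.

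Of the members with a match, 89.1% lay within 1000 bases of a start with KLF, 93.2% with SP and 94.1% with NRF1. Those near a start had a median position of -49 bases with KLF, -44 bases with SP and -25 bases with NRF1. The GC box GGGCGG on either strand was found 2 times in 767 members (7.02%) and 3 or more times in 151 (1.38%), against 392 (1.28%) and 28 (0.0912%) of the shorter footprints; a longer stretch can hold more matches, and length chose the members.

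Among the KLF and SP members in the highest peaks were those before and after the start of Dnpep, an aspartyl aminopeptidase, with a peak value of 36.9 in replicate 1 and with no replicate 2 peak over their middles. For NRF1 they included those at Fzr1, an activator of the anaphase-promoting complex, with 25 bases in replicate 1 and 20 in replicate 2 and peak values of 40.2 and 12.2, and Ing2, a chromatin reader, with 46 bases in each library and peak values of 33.2 and 13.

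Other promoter factors were rarer. CRE, the site of cAMP-responsive CREB and ATF factors, was matched by TGACGTCA in 182 long footprints (1.67%, 1.43 to 1.92%), in 0.534% of shorter ones and in 0.584% (0.428 to 0.778%) of the windows, against 1.81% (1.51 to 2.15%) of the members with windows. The pattern of BANP, a factor of CpG-rich promoters, was found in 60 members (0.549%, 0.419 to 0.707%), in 0.150% of shorter ones and in 0.140% (0.0697 to 0.250%) of the windows, against 0.547% (0.387 to 0.749%) of the members with windows, and 59 of the 60 lay near a start. NF-Y, which binds CCAAT boxes (searched as CCAAT followed by C or G and then by A or G), was found in 444 members (4.07%, 3.70 to 4.45%) and in 2.05% of shorter footprints. Among the members with windows the NF-Y share was 4.93% (4.44 to 5.47%), against 5.71% (5.21 to 6.24%) of the windows, and these intervals overlap. The ETS pattern CCGGAAG was found in 2.60% of members (2.31 to 2.92%) and 2.68% of windows (2.33 to 3.06%), and the ZNF143 pattern ACTACAA in 34 members (0.311%, 0.216 to 0.435%) and 0.419% of windows (0.288 to 0.587%). Among the members with windows the shares were 3.01% (2.62 to 3.43%) for ETS and 0.316% (0.198 to 0.479%) for ZNF143. These intervals overlap those of the windows.

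The GATA and NF-E2 patterns were rare among long footprints. The GATA pattern AGATAAG was found in 24 members (0.220%, 0.141 to 0.327%), in 0.248% of shorter footprints and in 0.190% (0.107 to 0.314%) of the windows, against 0.273% (0.165 to 0.426%) of the members with windows. The pattern of NF-E2, a factor of red cells and platelets, was found in 23 (0.211%, 0.134 to 0.316%), in 0.111% of shorter ones and in 0.0254% (0.00307 to 0.0916%) of the windows, and 2 of the 23 lay near a start; among the members with windows it was 0.115% (0.0497 to 0.227%). Of the liver factors, the HNF4 pattern CAAAGTCCA was found in 4 members, that of FOXA (TGTTTACA or TGTTTACT) in 3 and that of HNF1 in 0 of 10922, which allows up to 0.0338% at the 95% level. At least 1 of the 26 patterns was found in 7283 members (66.7%, 65.8 to 67.6%), in 25.2% of shorter footprints, in 29.7% of the windows and in 58.9% of the members with windows, and 3639 members held none. Those 3639 lay near a start in 74.4% of cases and had a median length of 30 bases.

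At tRNA genes the long footprints took 2 forms, one over the start and one over the later part of the gene. RefSeq lists 403 tRNA genes here, of which 241 overlapped a replicate 1 peak and 238 a replicate 2 peak. On tRNA genes lay 133 of the 30701 shorter footprints and 188 of the 10922 members, the latter on 152 genes. Of these 188 members, 146 had their middle in the later part of the gene: they began at a median of 40 bases and ended at a median of 75 bases from the gene's start. The other 42 ran from a median of 47 bases before the start to 7 bases after it. The box B letters GGTTCGA were found in 114 of the 146 and in 0 of the 42; among all members 122 held them (1.12%), against 48 shorter footprints (0.156%). In the moved windows they were found in 52 of 7882 (0.660%, 0.493 to 0.864%), against 73 of the 6953 members with windows (1.05%, 0.824 to 1.32%). The form over the start ended at most 17 bases into the gene, and the later form began at least 28 bases into it. Both forms were found at 36 genes.

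**Figure D5:**
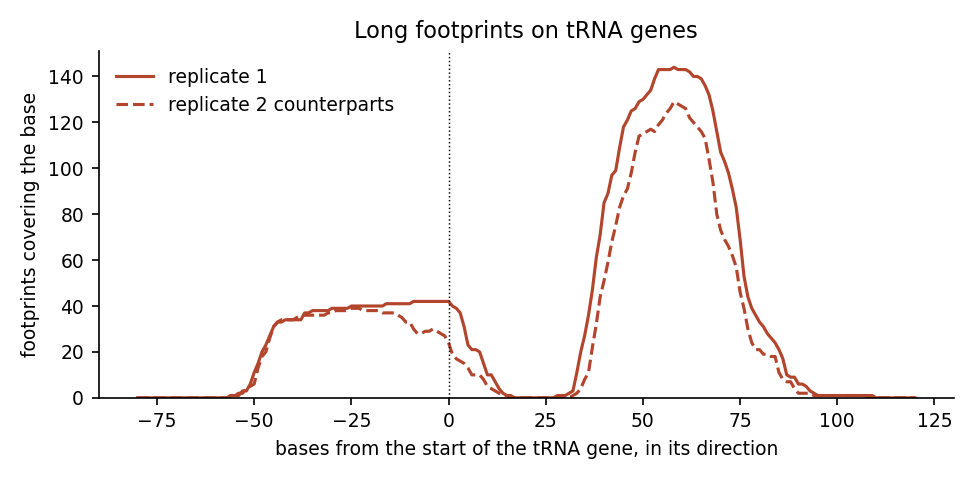
Number of long footprints that cover each base (vertical axis) by distance in bases from the start of the tRNA gene in its own direction (horizontal axis), in replicate 1 (solid) and for their replicate 2 counterparts (dashed). Coverage is highest 58 bases into the gene, with 144 members in replicate 1 and 129 counterparts in replicate 2, and a second block of 42 members runs over the start.

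Each member overlaps its replicate 2 counterpart by the rule, so only the counterparts' lengths and edges are described here. The later form had a median of 35 bases in replicate 1 and 29 bases in replicate 2, where it ran from 43 to 71 bases. The form over the start had a median of 53.5 bases in replicate 1 and 45.5 bases in replicate 2, and there began 46 bases before the gene and ended 1 base into it, against 7 bases in replicate 1. Both edges lay within 2 bases of the counterpart's in 35 of the 188 (18.6%, 13.3 to 24.9%). A replicate 2 counterpart of 25 bases or more was found for 127 of the 188 (67.6%, 60.4 to 74.2%), and for 31.6% of all members. These 188 included 29 of the 270 members of 50 bases or more. Many tRNA genes are near-copies: the central 25 letters of 121 of the 188 occurred more than once in the genome, against 387 of all 10922 members, so reads there may belong to more than 1 gene, and the sources used here do not state how such reads were handled. The highest peaks with a box B member were at n-TLaag4 by Polr3e, a subunit of RNA polymerase III itself, with a peak value of 23.8 in replicate 1 and 10.2 in replicate 2, then n-TStga3 with 22.4 and 15.5, and n-TRtcg5 with 17.6 and 10.6.

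The beta-globin locus, taken as chromosome 7 from 103762524 to 103903216, held 24 footprints in replicate 1 and 8 in replicate 2, and 2 long footprints. One covered the paired NF-E2 sites of HS2, an enhancer of the locus control region, and was 34 bases long in replicate 1 and 29 in replicate 2, in a peak of 8.75 in replicate 1 and 2.05 in replicate 2. RefSeq annotates NF-E2 and AP-1 sites here, both as footprinted in living cells, and a double site of Bach1. LCR in the labels may stand for this control region; the deletion's extent is not given, and reads from 1 intact allele cannot be told apart from reads of 2. The other covered the letters TATAAA in Hbb-bt, an adult beta-globin gene, in a UTR by the annotation and 48 bases after the annotated start, with 25 bases in replicate 1 and 23 in replicate 2, in a peak of 3.88 and 1.54. Outside that window, a member of 35 bases in replicate 1 and 33 in replicate 2 lay on a RefSeq CTCF site near Olfr633 at chr7:103942927-103942961, a region chosen after its values were seen.

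The alpha-globin locus, chromosome 11 from 32175628 to 32350873, held 77 footprints in replicate 1 and 47 in replicate 2, and 9 long footprints. Of the 9, 6 had a CTCF core. One lay in an intron of Rhbdf1 (31 bases in replicate 1, 17 in replicate 2). One lay in an intron of Nprl3, at a site RefSeq lists as constitutively open (46 and 18 bases). One lay before each of the theta-globin genes, Hbq1b (42 and 32 bases) and Hbq1a (32 and 30 bases). The last 2 lay side by side beyond Hbq1a, at chr11:32321325-32321357 (33 and 19 bases) and chr11:32321385-32321411 (27 bases in each library). The Hbq1b and Hbq1a footprints share their central letters, which occur 2 times in the genome. The member with the CTG and GATA letters printed above, in an Nprl3 intron that RefSeq lists as an erythroid enhancer of the alpha-globin genes, was 29 bases long in replicate 1 and 9 bases in replicate 2, in a peak of 6.94 and 2.18. Of the last 2 members, that at chr11:32285111-32285146 is wholly repeat-masked with central letters that occur 11889 times in the genome, and that at chr11:32324830-32324874 matched no pattern of the list.

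Other members lay on regulatory elements of at most 1000 bases that RefSeq annotates, 16 members in all, HS2 and the sites above included; those named here were chosen after their values were seen. They included enhancers near Gata2 (25 bases in replicate 1, 23 in replicate 2), in Runx1 (28 and 16 bases) and in and beside Zfpm1 (26 and 8 bases, 25 and 8 bases), genes of blood cell regulators. At the promoter of Apex1, a DNA repair enzyme, a member of 41 bases in replicate 1 and 38 in replicate 2 covered annotated CCAAT and Sp1 sites.

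The 10 longest members measured 64 to 77 bases. Of these 10, 5 lay within 1000 bases of a start. The member at the start of Zmynd8, a chromatin reader, was 72 bases long in replicate 1 and 70 in replicate 2 and held 3 CCAAT boxes, and no other member held so many. Those before Leprot had 66 bases in replicate 1 and 50 in replicate 2, before Dnm2 66 and 42, before Rc3h1 65 and 46, and before Mtrf1l 65 and 30. The member in the UTR of Hist1h1d, a linker histone gene, had 67 and 29 bases and held the letters TATAAA. The other 4 lay far from starts. The longest, on chromosome 12, had 77 bases in each library, the one in an intron of Peak1 on chromosome 9 had 74 in each library, and the one on chromosome 14 had 64 bases in replicate 1 and 85 in replicate 2. In that order their peak values were 1.97, 7.58 and 5.41 in replicate 1 and 4.70, 10.4 and 13.2 in replicate 2. The replicate 2 value was the higher one at 345 of the 10390 members with a replicate 2 peak (3.32%). The scales may differ and the count depends on them, so nothing is concluded from it. The origin of these values was not tested. The fourth, on chromosome 6 with 75 and 21 bases, and the member on chromosome 14 have central letters that occur 16 and 7 times in the genome.

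A long footprint lay within 1000 bases of a start of 5463 of 21842 protein-coding genes (25%), and of 43.5% of the 12548 genes with a replicate 1 peak there. Of 12 housekeeping genes 11 had one. Of 23 genes of the red cell membrane and heme synthesis 9 had one, among them Epb41, which encodes a protein of the membrane skeleton, with 3 members in a peak of 33.0 in replicate 1 and 12.9 in replicate 2. The longest of these had 64 bases in replicate 1 and 60 in replicate 2. Tfrc, the transferrin receptor that brings in iron, had 3 members of 27, 25 and 25 bases (27, 23 and 29 in replicate 2), and Fech, the last enzyme of heme synthesis, 1 of 32 bases (33 in replicate 2). Of 13 erythroid regulators 4 had one (30.8%, against 43.5% of all genes with a peak): Zfpm1, Nfe2, Lyl1 with 2 members of 53 and 27 bases, and Myb. Of 16 hepatoblast genes only Cebpa had one, and 8 of the 16 had a replicate 1 peak within 1000 bases of a start, as did 22 of the 23 membrane and heme genes and all 13 erythroid regulators. Few genes of the other lists had a replicate 1 peak there: 5 of 9 blood progenitor, 1 of 7 megakaryocyte, 1 of 6 endothelial, 3 of 7 stellate and 1 of 7 macrophage genes. Of these only the macrophage gene, Spi1, had a long footprint. The tissue holds many cell types, and a footprint in few cells cannot be told apart from a weak one in many.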

How the data were processed

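DNase-seq was run on 2 libraries of embryonic mouse liver. Per the text files deposited with each library, it has its own tables on mm10, made by the authors from its own alignments and not pooled; the sources used here do not name the peak and footprint callers. The deposited footprint score is a constant 0.01, so positions alone were used. The deposited peak signal is used as the authors' value of each peak. Values of both libraries are printed side by side, and their scale is not stated. The count of members with the higher replicate 2 value sets them against each other, and nothing is concluded from that count. The deposited false discovery rate (an adjusted p-value) is listed under 0.05. Wholly in listed stretches lay 10921 of 10922 members in replicate 1 and 10874 in replicate 2. Of the 30701 shorter shared footprints, 30650 and 30523 did so. Nearly all shared footprints thus passed, whatever their length. Most members had replicate 2 counterparts under 25 bases, so the stretches there reach beyond the footprints. The listing is therefore no check on footprint calls or lengths. The peak values are whole multiples of 0.0123 in replicate 1 and 0.0139 in replicate 2. The sources used here do not give the number of reads, so the depth is unknown.

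The members, motifs and gene lists were chosen with earlier results of these data known. Named regions are the 10 longest, the 3 in the highest peaks for each of the 4 leading motifs, all in the globin loci, those at list genes and the fullest peaks; others are said to be chosen after their values were seen. Some regions that this rule names are not reported here. Where several peaks held a footprint, the highest was its host. Starts and exons came from GENCODE vM21 protein-coding transcripts, tRNA genes and elements from RefSeq, all on GRCm38. All 100 list genes were found. Motifs were searched on both strands in the footprint widened by 5 bases. Beside those spelled out above, the list held AAGATGGC (YY1), CACGTG (E-box), TGACTCA or TGAGTCA (AP-1, inside NF-E2), GTTGCCATG (RFX), TGTGGTTA or TGTGGTTT (RUNX), TTGCGCAA (CEBP), TTCCNNGAA (STAT5) and the REST, CTG with GATA, MEF2 and P53 patterns. Regions are not replicates and there is 1 group, so no test was run and no p-value is given. Functions were tested on simulated data. Python 3.11.15, pandas 2.3.3, numpy 2.4.6, scipy 1.17.1 and pysam 0.24.0 were used.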

Additional observations from a re-analysis of the deposited data

How the results depend on the processing

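Of 92 alternative values for the 10 results given without a test, 44 moved by less than 1 SD between the libraries (the count by less than 1.5 times) and 48 by more; the cause was not tested beyond what each alternative changes by its construction. That SD rests on 2 values, so the tally does not measure robustness. For counterpart length and edge agreement they are the reported and swapped values, so the swap moves by construction. For edge agreement the SD was 11.8, and 1.46% with equal edges counts as unmoved. For any pattern it was 0.0523, and all alternatives count as moved. The number of long footprints, 10922, was 6373 at 30 bases or more, 17009 at 20 bases or more, 6810 when the overlap had to cover at least 50% of both footprints, and 4107 with the replicates swapped, since replicate 2 lists fewer long footprints. It ranged from 4136 to 12191 when 1 library was left out. With the replicates swapped the counterpart had a median of 32 bases (20 as reported), both edges agreed within 2 bases in 28.7% (12.0%), 58.8% lay within 1000 bases of a start (64.0%), 34.0% held a CTCF core (29.6%), 0.219% ZNF143 (0.311%) and 66.5% any pattern (66.7%), and the median peak value was 4.57 in replicate 2 peaks (7.01 in replicate 1 peaks, on a scale that may differ) and GC 69.0% (69.2%). The order of long and shorter footprints in edge agreement turned round in that case. Edges within 5 bases were seen in 27.5%. The share near a start was 68.3% at 20 bases or more, 60.7% within 500 bases, 68.7% within 2500 bases, and 58.7 to 60.8% with 1 library left out. The CTCF share was 23.3% at 20 bases or more, 32.7% with the stricter overlap, 31.0 to 34.0% with 1 library left out and, in alternatives chosen after seeing the data, 19.8% with at most 1 mismatch and 12.0% with an exact pattern of 11 letters. The NRF1 share was 7.69% at 30 bases or more, 7.74% at 20 or more, 8.59% with the stricter overlap and 6.15 to 6.96% with 1 library left out. The ZNF143 share was 0.377% at 30 bases or more, 0.235% with the stricter overlap, 0.146% without widening, 0.595% widened by 10 bases and 0.218 to 0.295% with 1 library left out. Any pattern was found in 69.7% at 30 bases or more, 61.6% at 20 or more, 69.9% with the stricter overlap, 66.5% in the shorter peak list, 63.0% without widening, 69.1% widened by 10 bases, 67.5% of members whose central 25 letters occur once, and 66.4% with either library left out. The median peak value was 4.53 to 6.20 with 1 library left out. Median GC was 68.6% at 30 bases or more, 70.4% at 20 or more, 69.6% of members whose central letters occur once, and 68.8 to 69.0% with 1 library left out. No paired analysis was possible because there is 1 group. The sources used here do not give the read depth, and how far it limits footprint length in replicate 2 was not tested.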

Other observations

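Leaving out the 387 members whose central 25 letters occur more than once in the genome left 10535 members, with a median replicate 2 length of 20 bases, 29.6% with a CTCF core and 65.3% within 1000 bases of a start. It left 67 of the 188 members on tRNA genes.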
